A study of Mus musculus with 8 samples.

Results

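The genes described here are markers of the Langerhans cells and T cells that live among the keratinocytes of mouse epidermis. They were followed in bulk RNA-seq of sorted skin epithelial stem cells. The 10 genes were listed by name, and rows were taken by gene symbol. Cd207, Cd74, H2-Aa, H2-Ab1, H2-Eb1, Ptprc, Cd3e, Cd3g and Cd52 had a row in the table of epidermal stem cells (EpdSCs), 9 genes of the 16231 there. Cd74, H2-Aa, H2-Ab1, Ptprc and Cd3g also had a row in the table of hair follicle stem cells (HFSCs), 5 genes of the 23861 there. Tyrobp had no row in the tables used here and was not analysed. Of the 24755 genes with a row in either table, 9 were therefore followed. The list was drawn up with earlier values of these same libraries in view, so the genes' levels and differences are given as a description.

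The study asked what loss of the homeobox factor Msx2 does to HFSCs and their niche at the time of hair shedding. Cells came from dorsal skin of mice in telogen, the resting phase of the hair cycle, with 2 libraries in each of 4 groups. HFSC libraries came from 2-month-old wild-type (WT) mice and 6-month-old Msx2-KO mice, so age and genotype cannot be told apart in HFSCs. EpdSC libraries came from 6-month-old WT and 6-month-old Msx2-KO mice. The names of the deposited columns also differed with genotype in both cell types, by prefix in HFSCs and by number series in EpdSCs. The labels do not say what these names stand for, so handling that they may follow cannot be told apart from genotype. WT mice were C57BL/6J animals matched by hair cycle. Msx2-KO mice were homozygous for an allele with a neo cassette inserted upstream of exon 2, and the paper's methods describe neither their strain background nor littermate controls. For skin histology, a figure legend of the paper does name WT littermates matched by age, sex and strain. By the methods, HFSCs were sorted as CD34+ CD49f+ Sca-1- cells and EpdSCs as CD34- CD49f+ Sca-1+ cells after the removal of dead cells. No antibody against CD45, the protein of Ptprc, is named for the sort. The labels do not say whether the 2 libraries of a group came from separate mice, so any p-value measures only the spread between these libraries.

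Langerhans cells are the antigen presenting cells of the epidermis. They carry the lectin langerin and display peptides on MHC class II molecules, which are pairs of an alpha and a beta chain that are assembled with the invariant chain. In mouse epidermis they sit beside dendritic epidermal T cells, which carry a gamma delta T cell receptor that reaches the surface only with the CD3 chains. CD45 is a phosphatase on the surface of all nucleated blood cells, and TYROBP (DAP12) is an adaptor with an ITAM motif that passes on signals from receptors of myeloid and NK cells. Keratinocytes keep these cells in place with cytokines and adhesion molecules such as IL-34 and E-cadherin.

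MHC class II genes share a promoter module, and it is printed for H2-Aa and H2-Eb1, the 2 class II marker genes with an entry in the promoter table, because their levels went opposite ways in EpdSCs. The stretches are the 150 bases before the start of each gene, from RefSeq on GRCm38.p6. For H2-Aa this was chr17:34287824-34287973 on the minus strand and for H2-Eb1 chr17:34305717-34305866 on the plus strand. Capitals mark the Y box (CTGATTGG, which holds the letters of an inverted CCAAT box). In H2-Eb1 they also mark the letters searched for as the core of the X box. H2-Aa had no exact match to those letters. Looser forms of the X box were not searched for, so H2-Aa may still hold an X box. A part of these boxes in the opposite levels was not tested.
H2-Aa: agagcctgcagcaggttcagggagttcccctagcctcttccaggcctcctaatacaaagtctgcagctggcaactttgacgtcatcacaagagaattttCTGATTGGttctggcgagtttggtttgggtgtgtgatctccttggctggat
H2-Eb1: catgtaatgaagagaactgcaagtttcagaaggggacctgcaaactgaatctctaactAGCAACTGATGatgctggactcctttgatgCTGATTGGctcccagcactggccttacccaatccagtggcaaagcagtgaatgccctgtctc
The Y box began 51 bases before the start of H2-Aa and 62 bases before the start of H2-Eb1, and the X box core began 92 bases before the start of H2-Eb1. On either strand, 4.10% of the 32851 promoter windows of 300 bases held the letters of the Y box and 0.968% held those of the X box core. The boxes did not overlap each other. The windows of Cd207, Ptprc, Cd3e and Cd3g held neither set of letters. Promoter entries were at hand for 6 of the 10 genes.

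The genes lie in 2 clusters and at single sites (GRCm38). H2-Ab1 (chr17:34257689-34269419), H2-Aa (chr17:34282744-34287823) and H2-Eb1 (chr17:34305867-34316674) fall within 59.0 kb of the MHC. Cd3g (chr9:44969572-44980431) and Cd3e (chr9:44998740-45009627) fall within 40.1 kb. Cd207 lies at chr6:83671215-83677857, Cd74 at chr18:60803848-60812652, Ptprc at chr1:138062861-138175708 and Cd52 at chr4:134082448-134095082. Several of them overlap another annotated gene, and the sources used here do not give the strand setting of the counting. H2-Eb1 overlaps the antisense gene Gm20513, Cd3e overlaps the antisense gene Gm48719, and the annotated span of Cd52 overlaps Crybg2 on the other strand. Reads of these pairs could not be separated without strand. On the same strand, Ptprc overlaps A130071D04Rik, Cd3e overlaps Gm48720 and Cd74 overlaps Mir5107, so strand would not separate them. In HFSCs A130071D04Rik had 17 and 3 counts in WT and 0 in both libraries labelled Msx2-KO.

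HFSC tables held estimated counts that summed to 3132974 to 11016659 per library, of which genes of the mitochondrial chromosome took 10.5% and 40.9% in WT and 56.6% and 62.1% in libraries labelled Msx2-KO. Of the 23861 HFSC rows, 22867 and 20229 were above 0 in WT but only 11749 and 14616 in libraries labelled Msx2-KO. EpdSC values were normalized by the authors, and 1 count was worth 1.08 and 0.948 in WT and 1.27 and 0.674 in libraries labelled Msx2-KO. They summed to 16478545 and 14681964 in WT and to 24694442 and 14216483 with the Msx2-KO label. Mitochondrial genes took 25.7% and 18.3% of these sums in WT and 5.13% and 8.22% with that label. Deposited EpdSC values are therefore not shares of nuclear counts. The sorted cells carried their defining transcripts: Cd34 had 677 to 3678 counts in the HFSC libraries, and Ly6a, the gene of Sca-1, had values of 472 to 3493 in the EpdSC libraries. Cd34 had no row for EpdSCs and Ly6a none for HFSCs. Krt5, Krt14, Krt15 and Itga6 were found in all 8 libraries. The targeted gene did not separate the genotypes. Msx2 had 7.08 and 2.26 counts-per-million (CPM) in WT HFSCs against 4.36 and 3.82, and values of 58.5 and 85.4 in WT EpdSCs against 150 and 22.2. By in situ hybridization (RNAscope) of skin sections, the paper reports no Msx2 expression in Msx2-KO mice. The Msx2 values of these libraries could not check the genotype, so the groups are called by their labels.

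In EpdSCs, 8 of the 9 genes had their highest value in WT replicate 1 and were near or at 0 in the libraries labelled Msx2-KO. H2-Eb1 was the exception, with its highest value in a library labelled Msx2-KO. The plot of EpdSC values by library shows this order gene by gene. In bulk samples, fewer cells of a type and less RNA per cell cannot be told apart.

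**Figure D1:**
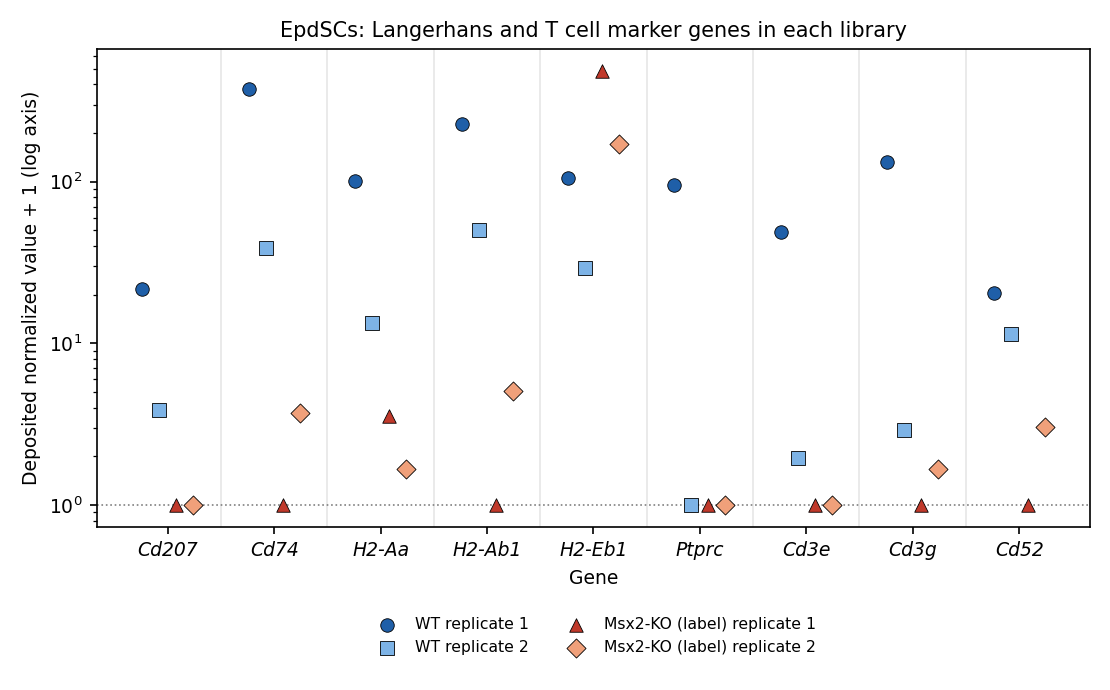
Deposited normalized values plus 1 on a log axis for 9 genes in the 4 EpdSC libraries, where 1 point is 1 library and the dotted line marks a value of 0. Circles of WT replicate 1 lie above all other points for 8 genes, up to 374 for Cd74, while for H2-Eb1 the libraries labelled Msx2-KO lie highest at 484 and 171.

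Langerin, the product of Cd207, is the lectin that forms the Birbeck granules by which Langerhans cells are recognised. Cd207 had values of 20.6 in WT replicate 1 and 2.85 in WT replicate 2, which are 19 and 3 counts, and was listed at 0 in the 2 libraries labelled Msx2-KO. The groups did not overlap, but WT replicate 2 was closer to 0 than to WT replicate 1. In HFSCs Cd207 had no row.

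Cd74 encodes the invariant chain, which holds the peptide groove of new MHC class II molecules closed. Its values in EpdSCs were 374 and 37.9 in WT and 0 and 2.696 in libraries labelled Msx2-KO. The mean of WT was 206 ± 237 (SD, n = 2), and the ratio of group means was 153. The WT libraries differed 9.85-fold from each other, and the lower of them still lay above both libraries labelled Msx2-KO.

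H2-Aa encodes the alpha chain of the class II molecule I-A, and H2-Ab1 encodes its beta chain. H2-Aa had values of 99.6 and 12.3 in WT and 2.55 and 0.674 in libraries labelled Msx2-KO, where the latter amount to 2 and 1 counts. With counts scaled by the factor that the authors' normalization gave each library, its ratio of WT to Msx2-KO was 40.2. The 95% interval of 13.4 to 198 covers counting error only. H2-Ab1 had values of 227 and 49.3 in WT against 0 and 4.04, and a ratio of group means of 68.4. As for Cd74, no WT library overlapped a library labelled Msx2-KO.

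H2-Eb1 encodes the beta chain of the second class II molecule, I-E. It had values of 105 and 28.5 in WT and 484 and 171 in libraries labelled Msx2-KO. The direction was opposite to that of H2-Ab1, and the mean was 4.90-fold higher with the Msx2-KO label on the deposited scale. In CPM of nuclear protein-coding genes, H2-Eb1 had 10.6 and 2.86 in WT against 22.0 and 14.0, a smaller difference in the same direction. The groups did not overlap here either. The ratio of H2-Eb1 to H2-Ab1 was 0.462 and 0.577 in the WT libraries and 42.2 in Msx2-KO replicate 2, and it could not be formed in Msx2-KO replicate 1, where H2-Ab1 was listed at 0. The part of the overlapping antisense gene Gm20513 in the H2-Eb1 values was not tested, and Gm20513 had no row of its own.

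Cd3e and Cd3g encode the epsilon and gamma chains of the CD3 complex, which carries the T cell receptor to the surface and passes on its signal. Cd3g had values of 131 and 1.90 in WT and 0 and 0.674 in libraries labelled Msx2-KO. Cd3e had 47.7 and 0.948 in WT and was listed at 0 in both libraries labelled Msx2-KO. These transcripts were thus largely those of 1 library, in which Cd3g had 121 counts and Cd3e 44, against 2 and 1 in WT replicate 2. The WT libraries differed 69.1-fold for Cd3g and 50.2-fold for Cd3e.

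Ptprc, the gene of CD45, had a value of 94.2 in WT replicate 1 and was listed at 0 in the other 3 EpdSC libraries. WT replicate 2 and the libraries labelled Msx2-KO therefore overlapped for Ptprc. Cd52 encodes a short glycoprotein anchored in the membrane of lymphocytes and other leukocytes. It had 19.5 and 10.4 in WT against 0 and 2.02, and it differed least between the WT libraries, by 1.87-fold. Crybg2, which overlaps the span of Cd52 on the other strand, had values of 2021 and 1561 in WT against 627 and 618. The part of Crybg2 reads in the Cd52 values was not tested. The ratio of WT to Msx2-KO for Cd52, with counts scaled as for H2-Aa, was 11.1, with a 95% interval for counting error of 3.44 to 56.9. A value of 0 in these libraries allows up to 3 counts, which is a value of 2.85 in WT replicate 2 and values of 3.82 and 2.02 in the libraries labelled Msx2-KO.

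Per length of transcript the genes kept a similar order in both WT libraries. In CPM of nuclear protein-coding genes per kb of exon, Cd74 had a level of 22.4 in WT replicate 1 and 2.27 in WT replicate 2. H2-Ab1 followed with levels of 8.91 and 1.93 and H2-Eb1 with 5.44 and 1.47. The lowest levels per length were those of Ptprc, at 0.518 and 0, and in WT replicate 2 also of Cd3e, at 0.0234. Cd3g stood higher in that order in WT replicate 1, at 4.03, than in WT replicate 2, at 0.0584. Exon length was the union over all annotated transcripts, which is long for Ptprc.

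Summed over the genes other than H2-Eb1, the share of these genes was 102 CPM (95% exact binomial interval 95.5 to 109) in WT replicate 1, again of nuclear protein-coding counts. The sum was 11.6 CPM (9.67 to 13.9) in WT replicate 2. With the Msx2-KO label it was 0.116 CPM (0.0140 to 0.418) in replicate 1 and 0.832 CPM (0.466 to 1.37) in replicate 2. Intervals and floors cover counting error only, and the counts behind EpdSC values were recovered from the size of 1 count. All sums were small shares of a library, and that of WT replicate 1 stood far above the rest. The log2 ratio of the summed values of the 9 genes, Msx2-KO over WT, was -0.92, and it was -6.48 without H2-Eb1. Without WT replicate 1 the ratio of all 9 turned to 1.21, so its direction rested on that library.

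The marker genes also differed between the WT libraries of EpdSCs. Over the 16231 genes the median of log2(value + 1) in WT replicate 1 minus WT replicate 2 was 0.01, and 90% of genes lay between -1.13 and 1.22. All 9 marker genes were higher in WT replicate 1, from 0.84 for Cd52 to 6.57 for Ptprc. The marker genes were chosen with these libraries in view and were low in WT replicate 2, so this is a description and not a comparison with genes of like level.

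**Figure D2:**
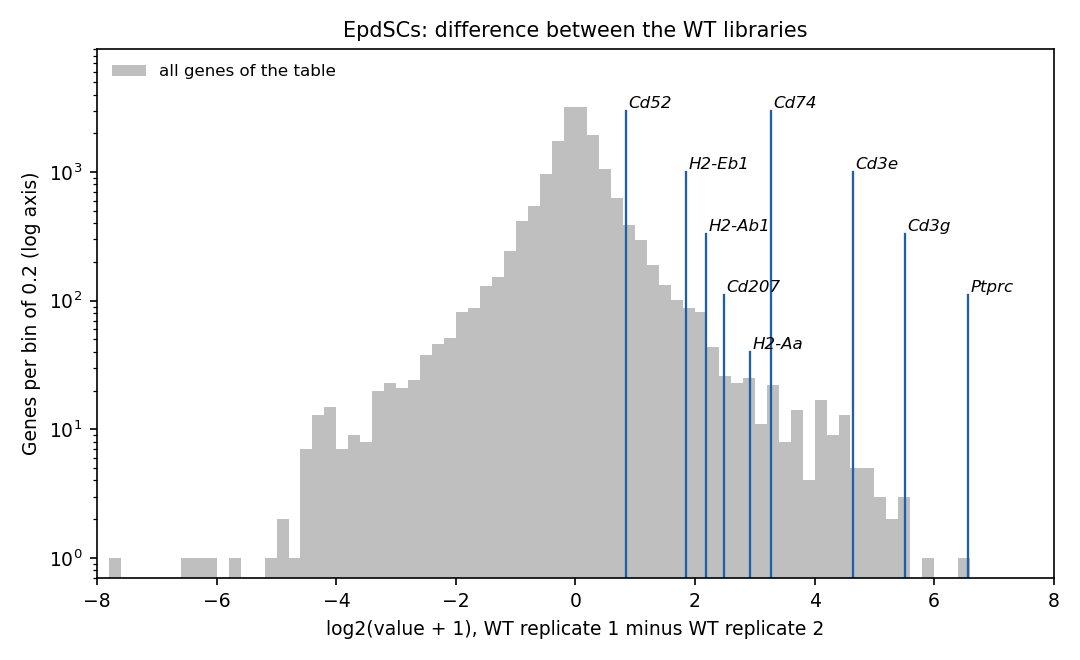
Histogram of the difference in log2(value + 1) between WT replicate 1 and WT replicate 2 of EpdSCs over all 16231 genes, with gene number on a log axis and a labelled line at each of 9 marker genes. All lines lie right of 0, and 8 of them lie beyond 1.22, the upper end of the range that holds 90% of genes.

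Fitted with limma across all genes of the table, none of the 9 genes passed an adjusted p of 0.05 with a fold over 2. Over all genes tested, 7.78% were called lower and 1.57% higher with the Msx2-KO label. The groups did not overlap for 7 genes that were lower and for 1 that was higher, beside 44.5% and 27.8% of all genes. The median log2 difference of the 9 genes was -3.29 and that of all genes -0.64. Since the genes were chosen on these libraries, nothing is read from these counts.

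The level of a gene in WT also bears on how often it was listed at 0. Among the 7176 EpdSC genes whose summed WT value lay in the range of the 8 genes other than H2-Eb1, 35.5% were listed at 0 in replicate 1 of the Msx2-KO label and 10.9% in its replicate 2. Of the 8 marker genes, 7 were at 0 in the former and 3 in the latter. That range, 23.4 to 412, was wide, and the marker genes were chosen on these libraries. So nothing is read from setting the 7 and the 3 beside these shares. Markers of suprabasal epidermis moved in the same direction as most of the marker genes. They summed to 279426 and 198746 in WT EpdSCs and 48590 and 73972 in libraries labelled Msx2-KO, and 2 of 10, Sbsn and Ivl, were called lower. Their part in the result was not tested.

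In HFSCs the 5 genes with a row were at most 185 counts in any library, and Cd74 went the opposite way to the other 4. H2-Aa had 8 and 1 counts in WT and 0 in both libraries labelled Msx2-KO. H2-Ab1 had 10 and 1 against 0 and 0, and Cd3g had 9 and 0 against 0 and 0. Ptprc had the most even WT values, 23 and 9 counts, which are 3.07 and 2.91 CPM after scaling, and 0 counts in both libraries labelled Msx2-KO. The WT mean over a floor of 3 counts per library labelled Msx2-KO was 6.21 for Ptprc, 1.72 for H2-Ab1, 1.44 for H2-Aa and 1.25 for Cd3g. These ratios bound the side of the Msx2-KO label only, and the WT means carry counting error of their own. For H2-Aa and H2-Ab1 these ratios rest on WT replicate 1, since WT replicate 2, at 0.323 CPM for each, lay below the floor of 0.482 CPM. Cd3g overlapped between the groups, since WT replicate 2 was at 0 as well.

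Zeros were common at this level in the HFSC libraries labelled Msx2-KO. Of the 5730 HFSC genes with a summed WT count of 9 to 32, the range of these 4 genes, 51.8% were listed at 0 in both. A 0 in both was therefore the more common outcome for genes of like WT count. Without Cd74 the genes took 15.2 CPM of nuclear protein-coding counts (95% exact binomial interval 11.3 to 20.1) in WT replicate 1 and 7.39 CPM (3.69 to 13.2) in WT replicate 2. In libraries labelled Msx2-KO, 0 counts allow shares of up to 0.818 and 1.64 CPM.

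Cd74 had 35 and 5 counts in WT HFSCs and 185 and 49 in libraries labelled Msx2-KO. After scaling these were 4.67 and 1.62 CPM against 20.2 and 10.4, with means of 3.14 ± 2.16 and 15.3 ± 6.89 (SD, n = 2). The groups did not overlap, and the log2 difference was 2.26 ± 1.08 (SE, n = 2), or 1.28 when scaled by library totals. It was 3.20 without WT replicate 1, 1.61 without WT replicate 2, 1.59 without Msx2-KO replicate 1 and 2.55 without Msx2-KO replicate 2. In the same libraries the alpha and beta chains with which the invariant chain pairs were at 0, whereas in WT HFSCs Cd74 had 1.94 and 2.50 counts for each count of H2-Aa and H2-Ab1 together. Suprabasal markers were also higher there, at 511 and 499 CPM in WT and 978 and 3182 CPM with the Msx2-KO label, and their part in the Cd74 values was not tested.

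**Figure D3:**
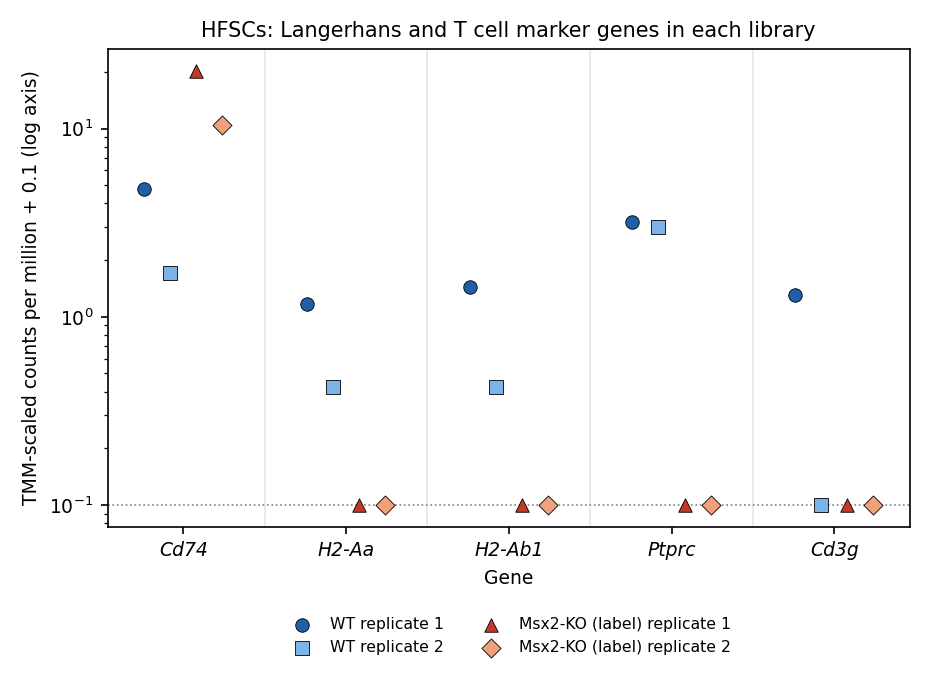
TMM-scaled CPM plus 0.1 on a log axis for 5 genes in the 4 HFSC libraries, where 1 point is 1 library and the dotted line marks 0 counts. Cd74 lies highest in the libraries labelled Msx2-KO, at 20.2 and 10.4, and the other 4 genes are at 0 there.

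Only Cd74 and Ptprc passed the filter on low counts in HFSCs, so 2 of the 10 genes were in the fit. With edgeR neither was called, and 0 of the 14422 genes were called in either direction at an adjusted p of 0.05, a share of 0% each. At an unadjusted p under 0.05 with a fold over 2, 724 genes (5.02%) were higher and 1757 (12.2%) lower. DESeq2 called 323 higher and 351 lower. Groups without overlap were found for 17.5% of tested genes in the direction of Cd74 and 33.5% in that of Ptprc.

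Set side by side, the cell types differed in which library carried the invariant chain. In CPM of nuclear protein-coding genes per kb of exon, the Cd74 level in HFSCs was 6.35 and 2.00 in WT and 30.0 and 15.98 with the Msx2-KO label, and in EpdSCs 22.4, 2.27, 0 and 0.132. Over the 8 libraries the order ran from Msx2-KO HFSC replicate 1 through WT EpdSC replicate 1 and Msx2-KO HFSC replicate 2 to the libraries under 10. The tables were normalized separately and the WT groups also differed in age, so no test was made between cell types.

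The other genes of the immune cells were taken from 4 lists of markers for antigen presenting cells, T cells, leukocytes in general and ITAM adaptors with their partner receptors. Without the marker genes above these held 127 genes, of which 51 had a row in EpdSCs and 77 in HFSCs. In EpdSCs 34 of the 51 were highest in WT replicate 1, but the share over all genes was not computed. Rows there had been filtered by the authors, with a smallest maximum of 10.1. A gene such as Cd7, listed above 0 in WT replicate 1 alone, therefore had its row through that library. Nothing is read from this count. By limma 4 of the 51 fell and 0 rose, at an adjusted p of 0.05 and a fold over 2. The share that fell, 7.84%, was close to the 7.78% of all genes. At an unadjusted p under 0.05, 17 fell and 2 rose, 33.3% of the list against 23.1% of all genes for lower values. The median log2 difference of the 51 was -2.66. Through the same filter, genes near the floor with the Msx2-KO label had their row through WT alone. Nothing is therefore read from these shares or this median.

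Ciita, the transactivator that switches on the MHC class II genes, had values of 39.0 and 36.04 in WT EpdSCs and was listed at 0 in both libraries labelled Msx2-KO. It was even between the WT libraries, unlike H2-Aa, H2-Ab1 and Cd74, and it fell by 5.27 ± 0.46 (SE) on the log2(value + 1) scale (adjusted p = 0.0266, limma). Of the other genes for peptide loading, H2-DMb1 had 87.6 and 41.7 against 0 and 16.2 (adjusted p = 0.176, limma), and H2-DMa had 32.9 and 21.8 against 87.9 and 10.1. Ifi30, a thiol reductase of the loading compartment, had 337 and 239 against 82.8 and 156 (adjusted p = 0.198, limma). In HFSCs Ciita had 27 and 5 counts in WT and 16 and 0 with the Msx2-KO label. Overlap between the groups there left no direction for Ciita.

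Among T cell genes, Trbc1, a constant segment of the T cell receptor beta chain, fell by 4.86 ± 0.72 (SE) on the log2(value + 1) scale (adjusted p = 0.0405, limma). Its values were 23.5 and 59.0 in WT EpdSCs against 0 and 0.749, and so it was the higher in WT replicate 2. The near-identical Trbc2 had 128 and 134 against 10.2 and 101, and reads of the 2 segments may be split between them. The constant segments of the gamma delta receptor followed Cd3g instead. Trdc had 36.8 and 1.90 in WT and was listed at 0 with the Msx2-KO label, and Trgc1 had 29.2 and 2.85 against 0 and 0. Neither passed the test (adjusted p = 0.18 and 0.135, limma). Cd7 had 45.5 in WT replicate 1 and was at 0 in the other 3 libraries, and Itgae, which encodes an integrin that binds E-cadherin, had 42.2, 0.948, 0 and 2.696.

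Vav1, an exchange factor of leukocyte signalling, had 27.1 and 13.3 in WT EpdSCs against 0 and 0.674 and fell by 3.95 ± 0.64 (SE) on the log2(value + 1) scale (adjusted p = 0.0468, limma). Fcgr3, an Fc receptor that signals through an ITAM adaptor, had 13.0 and 17.1 against 0 and 0 and fell by 3.99 ± 0.48 (SE) on that scale (adjusted p = 0.0293, limma). Ciita, Trbc1, Vav1 and Fcgr3 all had their rows through WT, so their falls are given as a description. With either WT library of EpdSCs left out, 0 of the 51 genes were called. Without Msx2-KO replicate 2 of EpdSCs, 17 (33.3%) were called lower and 3 (5.88%) higher, beside 40.9% and 23.1% of all genes.

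Some genes of these lists were also well expressed in libraries where the marker genes were at 0. On the deposited scale, the sums of the lists went different ways. The T cell list summed to 8027 and 7197 in WT EpdSCs and 9582 and 12409 with the Msx2-KO label, mostly from Bcl11b at 6511 to 10608 and Thy1 at 190 to 2251. In CPM of nuclear protein-coding genes, Bcl11b had 655 and 658 in WT against 317 and 873, so its groups overlapped. The antigen presenting list summed to 1361 and 1227 against 3285 and 2160, with Sirpa at 434 and 523 against 2455 and 999.5. Sirpa had 43.7 and 52.6 against 112 and 82.2 in that CPM. The ITAM list, of 3 genes and mostly Syk, was lower with the Msx2-KO label, at 295 and 283 against 22.9 and 37.7, and the leukocyte list overlapped at 1717 and 1183 against 364 and 2215. Cd5, a T cell surface receptor, was higher with the Msx2-KO label, at 15.2 and 23.7 against 93.0 and 157 (adjusted p = 0.0738, limma). Of the lists for other blood cells, those for B and plasma cells and for mast cells and granulocytes had no row in EpdSCs.

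**Figure D4:**
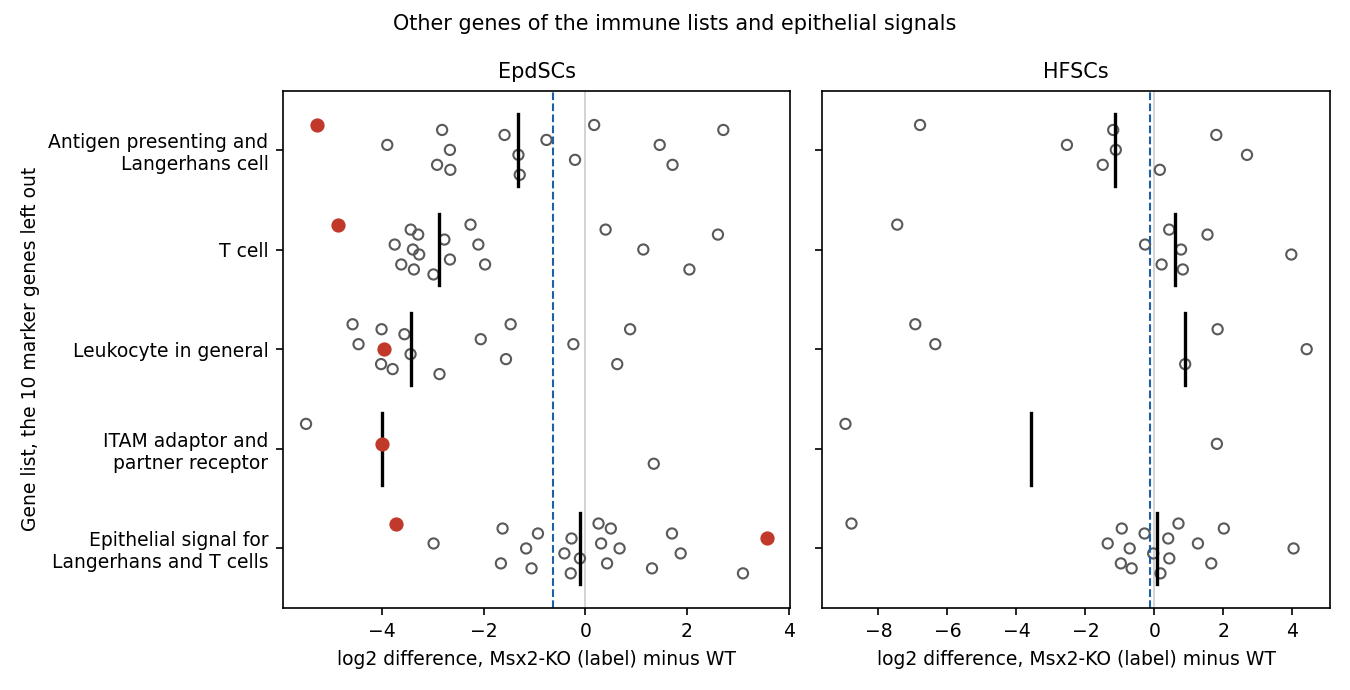
Log2 differences, Msx2-KO label minus WT, of single genes in 4 immune lists and a list of epithelial signals, with the 10 marker genes left out, for EpdSCs (limma, log2(value + 1)) and HFSCs (edgeR). Filled red points passed an adjusted p of 0.05 and a fold over 2, black bars are list medians, and the dashed line is the median of all genes, -0.64 in EpdSCs and -0.14 in HFSCs; only EpdSCs have filled points.

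In HFSCs 23 of the 77 list genes passed the filter, and edgeR called 0 of them, with 6 lower (26.1%) and 0 higher at an unadjusted p under 0.05, beside 12.2% and 5.02% of all genes tested. DESeq2 called 1 of them lower. List genes at 0 in both libraries labelled Msx2-KO, such as Syk and Prkcq, passed the filter through WT. Nothing is therefore read from the unadjusted shares. The median log2 difference of the 23 was 0.21, and 55 and 54 of the 77 (71.4% and 70.1%) were listed at 0 in libraries labelled Msx2-KO against 2 and 24 (2.60% and 31.2%) in WT. Over all rows these shares were 50.8% and 38.7% with the Msx2-KO label and 4.17% and 15.2% in WT. Sirpa had 45.1 and 38.8 CPM in WT and 4.36 and 10.2 CPM with the Msx2-KO label, Mfge8 had 41.8 and 44.3 against 10.2 and 29.5, and Zbtb46 had 4.67 and 1.94 against 14.3 and 8.91. Bcl11b had 77.2 and 97.3 CPM against 61.7 and 140, and Ptpn6, a phosphatase that dampens immune receptor signals, had 15.7 and 17.0 against 98.5 and 18.3. Ptpn22 had 0.801 and 0.647 against 1.31 and 4.03. Tcf7, Cd5, Trem2 and Clec5a were highest in Msx2-KO replicate 1, at 17.8, 7.84, 8.06 and 4.47 CPM, and their groups overlapped. Syk, the kinase that binds ITAM motifs, had 9.88 and 10.3 CPM in WT HFSCs and was at 0 in both libraries labelled Msx2-KO, and in EpdSCs it had 266 and 266 against 0 and 34.4.

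Of 21 epithelial genes that recruit or hold Langerhans and T cells, 1 rose and 1 fell in EpdSCs, beside 1.57% and 7.78% of all genes. The median log2 difference was -0.10, and that of all genes was -0.64. The groups did not overlap for 7 that were higher and 7 that were lower, beside 27.8% and 44.5% of all genes. Il33, an alarmin of keratinocytes, had 526 and 672 in WT against 5704 and 8875 and rose by 3.58 ± 0.53 (SE) on the log2(value + 1) scale (adjusted p = 0.0405, limma). Cxcl14, a chemokine of epithelia, had 3041 and 3772 against 200 and 326 and fell by 3.73 ± 0.54 (SE) on that scale (adjusted p = 0.0392, limma). With either WT library left out, neither was called. Il34, the cytokine on which Langerhans cells depend, overlapped between the groups at 1501 and 924 against 2991 and 841. Csf1, which shares its receptor with Il34, had 640 and 453 against 132 and 228 (adjusted p = 0.14, limma). Cdh1, the gene of E-cadherin, stayed between 9813 and 14547 in all 4 libraries, and Skint1, which guides dendritic epidermal T cells, had 1020 and 1225 against 941 and 365. In HFSCs, 16 of the 21 passed the filter and edgeR called 0 of them.

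The 10 genes whose profile over the 8 libraries was most like the mean of the marker genes were then found. Values were taken as log2 and centred within each cell type, and 9563 protein-coding genes were compared, each averaging 20 or more in both tables. Of the 127 immune list genes only 6 met that minimum, so most could not be among the 10. The highest Pearson correlations were those of Anxa8 (0.92), Etfb (0.91), Vwa2 (0.89), Fkbp5 (0.89), Pcdh1 (0.89), Arl4a (0.88), Gm26992 (0.87), Asb13 (0.86), Megf6 (0.85) and Epb41 (0.85). Anxa8 encodes an annexin and Fkbp5 a co-chaperone of steroid receptors. Anxa8 had 30918 and 26573 in WT EpdSCs against 20672 and 19241, a far smaller difference than that of Cd74. These correlations rest on 8 libraries that share depth and scaling within a table, and they are given as a description.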

How the data were processed

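Bulk RNA-seq of 8 libraries was analysed, 2 in each of 4 groups taken from the sample labels. Per the labels, libraries were made with a stranded total RNA kit (SMARTer), and the submitters' processing notes name STAR 2.7.3a, Partek and GRCm38/mm10. The authors deposited estimated counts per gene for HFSCs and, for EpdSCs, a normalized signal, which is the estimated count times a factor of its library. Rows of EpdSC genes were filtered by the authors, and the smallest maximum of a row was 10.1. Per the files, 72.8% to 82.4% of EpdSC values under 1000 were whole counts within 0.01, so they were not tested as counts. The authors also deposited their own comparisons (fold changes and p-values), which were not used. Columns of values per library not mapped to a sample numbered 0.

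For HFSCs, rounded counts of 14422 genes kept by filterByExpr went into the quasi-likelihood test of edgeR 4.0.16 with TMM factors. For EpdSCs, log2(value + 1) of 16231 genes went into limma 3.58.1. Calls needed a Benjamini-Hochberg adjusted p under 0.05 and a fold over 2. R 4.3.3, Python 3.11.15 and matplotlib 3.10.9 were used. Tests of simulated data with 200 genes changed 8-fold called 200 (HFSC) and 198 (EpdSC) at a dispersion of 0.05 and 0 in either at 0.5, while the common dispersion of the HFSC counts was 0.823. Coordinates and exon lengths came from GENCODE M21 on GRCm38.

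The marker genes, 14 gene lists and tests were chosen with earlier results of these data known. Named were the marker genes, Msx2, markers of the sorted cells, the called genes of each immune list or else its 3 with the highest level (1 of them is not reported here), and the 10 genes most like the marker genes. Others were named after their values were seen. Replicate numbers did not pair the libraries.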

Additional observations from a re-analysis of the deposited data

Results flagged for a closer look

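Among the marker genes and the immune list genes fitted in both cell types, there were 5 for which the libraries of the 2 cell types moved in opposite directions, without overlap between the groups in either cell type. Over all genes tested, 17.5% were higher and 33.5% lower without overlap in HFSCs, and 27.8% and 44.5% in EpdSCs. The share of all genes with opposite directions was not computed, so nothing is read from the count of 5. The difference between cell types was not tested, since the tables are in different units. Cd74 had a log2 difference, Msx2-KO label minus WT, of 2.26 in HFSCs and -5.97 in EpdSCs. Lcp2, an adaptor of T cell receptor signalling, had 3.97 in HFSCs and -2.66 in EpdSCs, with 4 and 0 counts in WT HFSCs against 36.4 and 28. In EpdSCs Lcp2 had values of 19.5 and 0.948 in WT against 0 and 0, so its lack of overlap there rests on the value of 0.948. Zbtb46, a factor of dendritic cells, had 1.79 and -2.91, Ptpn6 had 1.83 and -1.56, and Sirpa had -2.54 and 1.72. Ptpn22, which was not fitted in HFSCs, had 0.801 and 0.647 CPM against 1.31 and 4.03 there and 29.2 and 6.64 against 0 and 0.674 in EpdSCs. Lists of epithelial genes were not searched for this pattern. In HFSCs age differed together with genotype, and in EpdSCs it did not, while the names of the deposited columns differed with genotype in both.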

How the results depend on the processing

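Low counts and few libraries limit these results: 4 of the 5 HFSC genes had at most 23 counts in any library, and each group held 2 libraries. In HFSCs, where 0 genes were called in either direction, DESeq2 called 323 higher and 351 lower, library totals in place of TMM gave 16 and 35, a minimum of 10 counts in every library gave 2 higher, and the replicate block gave 145 and 86. DESeq2 called 1 list gene lower. Leaving out each library gave 90 to 2711 higher and 35 to 6561 lower, and among list genes 0 to 11 higher and 0 to 13 lower. In EpdSCs, with 255 higher and 1263 lower, a pseudocount of 0.1 gave 162 higher and of 10 gave 619 higher, and 4 called list genes became 1 with a pseudocount of 10. Leaving out each library gave 0 to 3745 higher and 0 to 6631 lower, and among list genes 0 to 4 higher and 0 to 17 lower, with 0 of each when either WT library was left out. The cause was not tested. To check pairing, the difference of replicate 1 minus replicate 2 in WT was set against that in libraries labelled Msx2-KO. Over genes, these differences correlated at -0.04 in HFSCs and -0.02 in EpdSCs, so the replicate numbers pair nothing. The block gave 2 called list genes in EpdSCs. The log2 ratio of the summed marker genes was 0.89 in HFSCs, -0.051 with library totals and 0.33 to 1.56 leaving out each library. In EpdSCs it was -0.92, -6.48 without H2-Eb1 and 1.21 to -1.81 leaving out each library, with 1.21 without WT replicate 1. Leaving out Cd74 (HFSCs) and H2-Eb1 (EpdSCs) was chosen after seeing the data, and the former gave no ratio because the libraries labelled Msx2-KO were at 0. Of 96 values of single marker genes under other settings, 79 moved by less than the spread between replicates and 17 moved by more, with 0 reversed. With all 4 libraries of a cell type, 0 marker genes were called in every setting run, and leaving out a library labelled Msx2-KO gave at most 2 in either cell type.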
